A study of Homo sapiens with 6 samples.

Results

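The genes described here are 10 feedback inhibitors of MAP kinase signalling, of 23595 named genes on the array. They are 7 dual-specificity phosphatases (DUSP1, DUSP2, DUSP4, DUSP5, DUSP6, DUSP10 and DUSP16) and 3 Sprouty genes (SPRY1, SPRY2 and SPRY4). Every array feature whose gene name in the files is one of these symbols was taken, which gave 19 of 45033 features, 14 for the phosphatases and 5 for the Sproutys. The samples are HCC-LM3 cells, a human hepatocellular carcinoma line selected for metastasis. The shASPP2 group carries a lentiviral shRNA against ASPP2, the p53-binding and polarity protein encoded by TP53BP2, and the shNon group carries the control lentivirus. Both groups had thus been infected, and RNA was taken 1 week later from 3 separate cultures of each, giving 6 arrays of 1 colour. The labels name 1 knockdown virus and 1 control virus in 1 cell line, and the shRNA sequence is not given in the sources used here.

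MAP kinases pass signals from growth factor receptors and from stress to the nucleus. The cascade through Ras, Raf and MEK ends in ERK, and parallel stress cascades end in JNK and p38. Dual-specificity phosphatases switch these kinases off by removing phosphate from both the threonine and the tyrosine of the activation loop. Sprouty proteins act further up and hold back the signal from receptor tyrosine kinases to Ras and Raf. Many of these genes are transcribed in response to the very kinases they restrain, and their transcript levels are often read as a record of recent ERK activity.

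None of the 19 features passed the test across the array. By limma with Benjamini-Hochberg adjustment over all features, 0 of 19 had an adjusted p under 0.05, where 0.138% of all features did, and the smallest adjusted p among them was 0.199. With limma's trend and robust variance 2 of 19 passed, 1 of DUSP5 and 1 of DUSP6, where 2.11% of all features did. At an unadjusted p under 0.05 in the same limma fit there were 8 of 19, 6 higher and 2 lower in shASPP2, where 11.4% of all features were past that level, 5.7% higher and 5.68% lower. The arrays of the groups did not overlap for 9 of 19 features, 6 higher and 3 lower, where 18.6% of all features had groups that did not overlap, 9.46% higher and 9.17% lower. Several features can belong to 1 gene, so these counts are not counts of independent genes. With the brightest feature standing for each gene, 3 of 10 genes were at an unadjusted p under 0.05, against 11.7% of all genes. The fold changes ran both ways within the family. Mean log2 intensity was higher in shASPP2 on all 11 features of DUSP1, DUSP2, DUSP4, DUSP5, DUSP10, SPRY2 and SPRY4, and lower on all 8 features of DUSP6, DUSP16 and SPRY1.

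**Figure D1:**
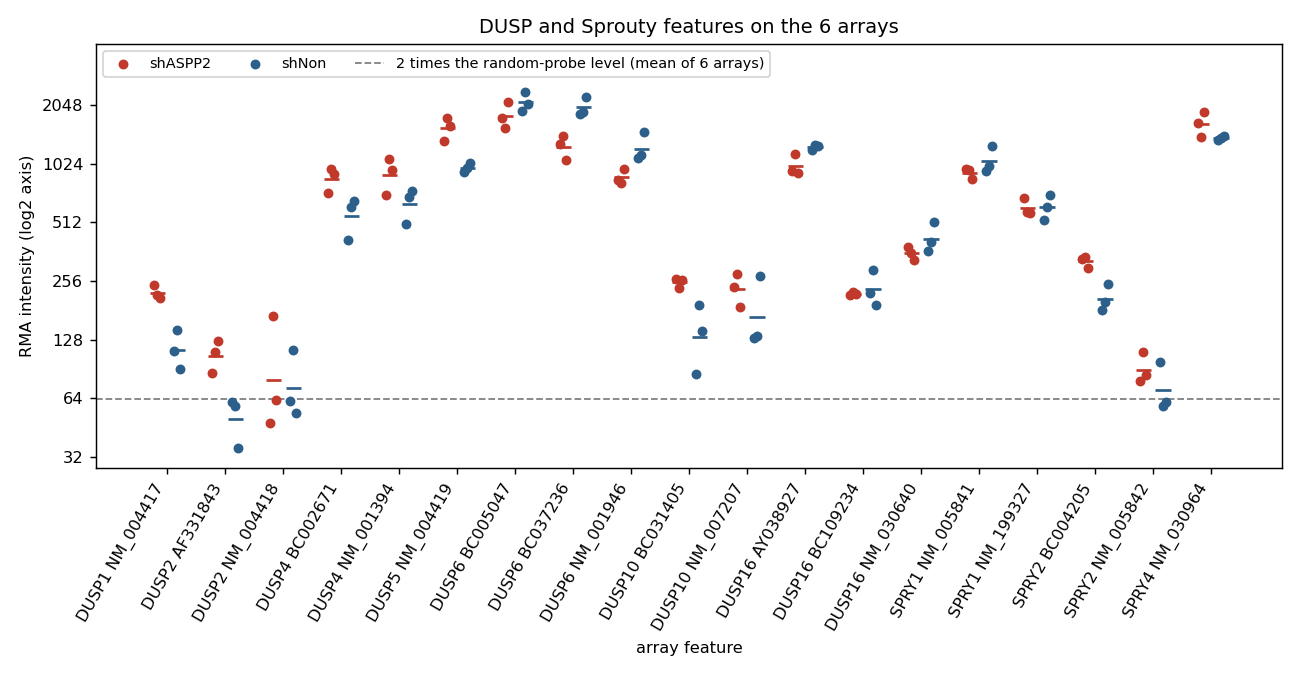
RMA intensity (log2 axis) of each of the 19 DUSP and Sprouty features on the 3 shASPP2 arrays (red, left) and the 3 shNon arrays (blue, right), with short bars for the mean of the log2 values. The dashed line is 2 times the random-probe level. DUSP1, DUSP5 and the first-listed DUSP4, DUSP10 and SPRY2 features are higher on all 3 shASPP2 arrays, and 2 of the 3 DUSP6 features are lower.

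The knockdown itself was visible on both TP53BP2 features. The feature NM_005426 read 132, 91.9 and 126 on the shASPP2 arrays, against 289, 346 and 285 on the shNon arrays (log2 fold change -1.41, SE 0.209, limma adjusted p = 0.0991). The other feature, NM_001031685, had a log2 fold change of -1.11 (SE 0.249, limma adjusted p = 0.203). On both features the groups did not overlap, and neither passed over all features. The arrays were close in brightness, with a median intensity of 111 to 122. Log2 intensities correlated at 0.983 to 0.985 between shASPP2 arrays and at 0.958 to 0.972 between shNon arrays. With the shASPP2 arrays, shNon array 2 correlated at 0.977 to 0.978, better than with the other shNon arrays. Random-sequence probes, which match no transcript, read 30.4 to 30.8 in shASPP2 and 31.8 to 33.3 in shNon. Over all features the median SD of log2 intensity was 0.23 in shASPP2 and 0.31 in shNon, and 12 of the 19 DUSP and Sprouty features varied more in shNon. Of 12 hepatocyte and liver carcinoma markers, 6 were above 2 times the random-probe level on all 6 arrays (ALB, TF, FGB, HNF4A, KRT8 and KRT18). AFP, TTR, APOA1, APOB and SERPINA1 were not, and EPCAM was above it on no array. The summed intensity of these 12 was 25202 to 29609 in shASPP2 and 21731 to 23570 in shNon, with KRT8 its brightest member (mean 14332 in shASPP2, 8766 in shNon). FGB, a fibrinogen chain, was the only 1 of the 12 to pass and fell to a mean of 1128 in shASPP2, against 3727 in shNon (log2 fold change -1.73, limma adjusted p = 0.0336). TF and ALB were also lower in shASPP2 without overlap and did not pass. ALB was dim, with a mean of 68.4 in shASPP2 and 86.5 in shNon. HNF4A, KRT8 and KRT18 were higher without overlap and did not pass either (log2 fold change 0.56, 0.71 and 0.25). The same held for TTR and SERPINA1 (0.62 and 0.83), which were dim. The summed intensity of 5 endothelial markers was 1003 to 1240 in shASPP2 and 2003 to 2118 in shNon. Its brightest member was PECAM1, with a mean of 968 in shASPP2 and 1866 in shNon (log2 fold change -0.96, limma adjusted p = 0.158). PECAM1 alone of the 5 was above 2 times the random-probe level on all arrays, and VWF, KDR and TIE1 were above it on no array. Of 6 leukocyte markers CD68 alone was above it on all arrays (sum 3708 to 4248 in shASPP2, 2778 to 3698 in shNon). Of 7 fibroblast markers it was COL1A1 and LUM (sum 609 to 744 in shASPP2, 505 to 717 in shNon). The part of these differences in the results below was not tested. Fewer cells of a kind and less RNA per cell cannot be told apart in such bulk samples.

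DUSP1, also called MKP-1, is a nuclear phosphatase of p38, JNK and ERK whose gene is switched on within minutes of many stimuli. Its only feature, NM_004417 (chromosome 5, 172127706 to 172130809, hg18), read 244, 218 and 209 on the shASPP2 arrays, against 112, 143 and 90.3 on the shNon arrays. All 3 shASPP2 arrays lay above all 3 shNon arrays, and they were also closer to one another. The mean was 223 ± 18.1 in shASPP2 and 115 ± 26.4 in shNon (SD, n = 3 each; exact permutation test on log2 values, two-sided, p = 0.1, the smallest that 3 against 3 arrays can give). The log2 fold change was 0.98 (SE 0.217, 95% interval 0.47 to 1.48), the smallest p of the 19 features, and limma's adjusted p over all features was 0.199. With single arrays left out it lay between 0.82 and 1.15.

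The DUSP1 promoter is shown because this feature had the smallest p of the family and because its control by cAMP-response elements is well described. The window is chr5:172771146-172771445 on the minus strand (RefSeq, GRCh38.p14) and runs from 250 bases before the transcript's start to 50 after it, with matches to the searched motifs in capitals.
DUSP1: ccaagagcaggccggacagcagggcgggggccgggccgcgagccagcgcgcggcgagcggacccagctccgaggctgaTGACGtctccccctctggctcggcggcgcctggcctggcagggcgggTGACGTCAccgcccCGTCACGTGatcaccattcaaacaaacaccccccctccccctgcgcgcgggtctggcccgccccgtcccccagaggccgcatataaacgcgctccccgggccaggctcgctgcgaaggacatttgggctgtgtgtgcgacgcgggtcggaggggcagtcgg
The core motif of the cAMP-response element (TGACG, either strand) matched 4 times, starting 172, 125, 122 and 111 bases before the start. The matches at 125 and 122 overlap on opposite strands and form 1 full palindromic element. The match at 111 overlaps an E-box (CACGTG) at 108. Of 35116 promoter windows of this length in the same table, 24.6% held the core motif and 7.26% the E-box. A match gives letters only and says nothing of binding in these cells.

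DUSP2 (PAC-1), DUSP4 (MKP-2) and DUSP5 are the other nuclear, inducible phosphatases among these genes, and DUSP5 acts on ERK with high selectivity. DUSP5 (NM_004419, chromosome 10, 112247614 to 112261292, hg18) read 1338, 1752 and 1604 on the shASPP2 arrays, against 923, 976 and 1034 on the shNon arrays. The groups did not overlap, with the lowest shASPP2 array at 1338 and the highest shNon array at 1034. The log2 fold change was 0.67 (SE 0.182, 95% interval 0.25 to 1.10), with a limma adjusted p of 0.266 and, with trend and robust variance, of 0.0227.

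The 2 features of DUSP4 (chromosome 8, 29249538 to 29264104 for the longer one, hg18) pointed the same way. BC002671 read 724, 955 and 902 in shASPP2, against 415, 614 and 657 in shNon. NM_001394 read 709, 1076 and 953 in shASPP2, against 503, 691 and 738 in shNon. On the first the groups did not overlap, while on the second the lowest shASPP2 array lay below the highest shNon array. In both groups array 1 had the lowest reading of its group. The log2 fold changes were 0.63 (SE 0.237, 95% interval 0.08 to 1.19) and 0.50 (SE 0.241, 95% interval -0.06 to 1.06), and neither passed over all features (limma adjusted p = 0.386 and 0.490). Without shNon array 1 they were 0.43 and 0.33.

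DUSP2 was dim, and its features disagreed in size. AF331843 (chromosome 2, 96172643 to 96174070, hg18) read 86.7, 110 and 126 in shASPP2, against 61.3, 58.7 and 35.7 in shNon. The groups did not overlap, but all 3 shNon arrays lay under 2 times the signal of the random probes. The log2 fold change of the values as read was 1.07 (SE 0.268, 95% interval 0.45 to 1.70, limma adjusted p = 0.237). With the shNon arrays set to that floor, the shASPP2 mean was 1.63-fold higher. That ratio was not tested and takes no account of the spread between arrays. NM_004418, which spans nearly the same stretch, read 47.9, 169 and 62.8 in shASPP2, against 61.8, 113 and 54.1 in shNon. There array 2 was the high one in both groups, the groups overlapped, and the log2 fold change was 0.14 (SE 0.499, 95% interval -1.02 to 1.31), with -0.40 without shASPP2 array 2 and 0.51 without shASPP2 array 1.

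DUSP6, also called MKP-3, is the cytoplasmic counterpart, selective for ERK and itself transcribed when ERK is active. Its 3 features (chromosome 12, 88265967 to 88270427 for the longest, hg18) all had lower means in shASPP2. BC037236 read 1282, 1415 and 1063 in shASPP2, against 1841, 1892 and 2248 in shNon, with no overlap. NM_001946 read 848, 810 and 959 in shASPP2, against 1088, 1133 and 1479 in shNon, again with no overlap. BC005047, the brightest, read 1759, 1566 and 2119 in shASPP2, against 1904, 2386 and 2073 in shNon, and these groups overlapped. The log2 fold changes were -0.67 (SE 0.193, 95% interval -1.12 to -0.22), -0.49 (SE 0.195, 95% interval -0.95 to -0.03) and -0.23 (SE 0.196, 95% interval -0.69 to 0.23). None passed over all features (limma adjusted p = 0.283, 0.412 and 0.695), and BC037236 had an adjusted p of 0.0210 with trend and robust variance. With single arrays left out BC005047 lay between -0.35 (without shASPP2 array 3) and -0.13 (without shASPP2 array 2), and it was -0.14 without shNon array 2. DUSP6 thus stood on the other side of 0 from DUSP1, DUSP4 and DUSP5.

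The DUSP6 promoter is shown beside that of DUSP1 because the values of the 2 genes ran in opposite directions. The window is chr12:89352452-89352751 on the minus strand (RefSeq, GRCh38.p14), of the same length and placing.
DUSP6: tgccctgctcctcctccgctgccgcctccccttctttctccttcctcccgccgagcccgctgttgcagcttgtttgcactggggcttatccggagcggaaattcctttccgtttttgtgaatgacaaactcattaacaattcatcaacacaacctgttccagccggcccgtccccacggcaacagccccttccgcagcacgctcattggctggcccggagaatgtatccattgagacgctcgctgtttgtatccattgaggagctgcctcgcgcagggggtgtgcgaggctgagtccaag
It held no match to that core motif, to the AP-1 motif (TGANTCA), to the ETS core (CCGGAA) or to the E-box on either strand, so it has no capitals. Over all windows of this length 7.71% held the AP-1 motif and 17.2% the ETS core. The absence of these letters from this window says nothing of the factors.

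**Figure D2:**
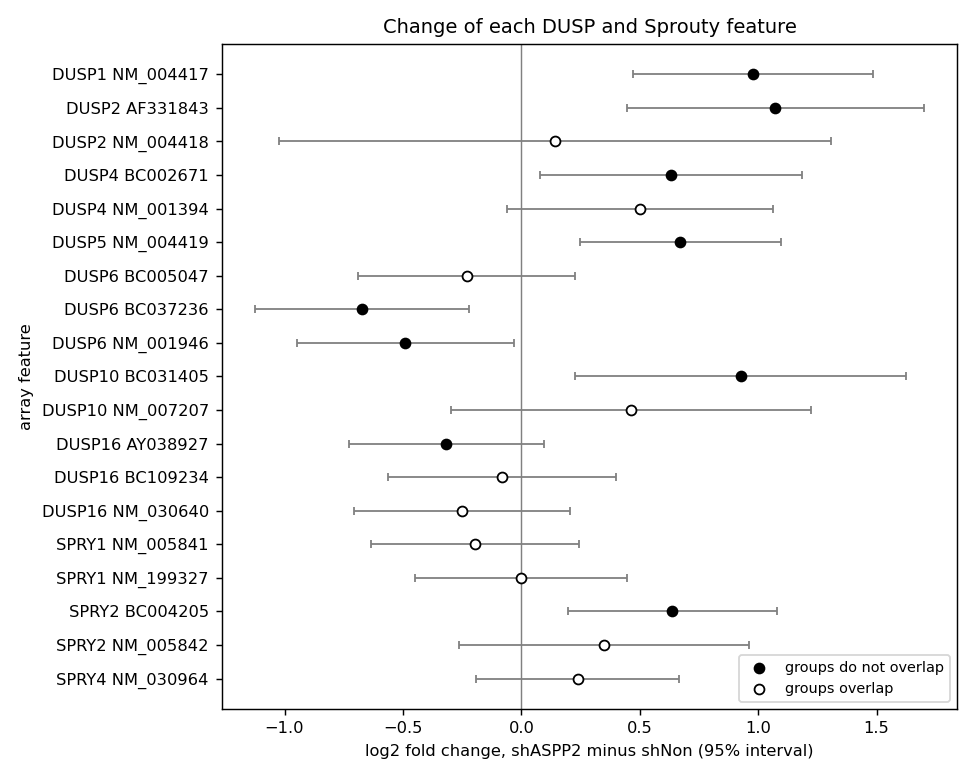
Log2 fold change, shASPP2 minus shNon, of each DUSP and Sprouty feature with limma's 95% interval. Filled points are features whose 3 shASPP2 arrays all lie on one side of the 3 shNon arrays, 6 to the right of 0 and 3 to the left. The 3 DUSP6 features are left of 0 and the DUSP1, DUSP4, DUSP5 and DUSP10 features right of it.

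DUSP10 (MKP-5) and DUSP16 (MKP-7) prefer JNK and p38 over ERK. The DUSP10 feature BC031405 (chromosome 1, 219941388 to 219982040, hg18) read 263, 236 and 259 in shASPP2, against 85.7, 193 and 141 in shNon. The shASPP2 arrays were tightly grouped above all shNon arrays, which spread widely, with an SD of 0.08 log2 in shASPP2 and 0.59 in shNon. The difference was 0.93 log2 (SE 0.299, 95% interval 0.23 to 1.63, limma adjusted p = 0.329), and 0.61 without shNon array 1. NM_007207, with the same start, read 239, 278 and 188 in shASPP2, against 130, 134 and 272 in shNon. Here shNon array 3 lay between the highest and the middle shASPP2 array, so the groups overlapped, and the log2 fold change was 0.46 (SE 0.324, 95% interval -0.30 to 1.22), 0.81 without that array, 0.28 without shNon array 1 and 0.30 without shNon array 2.

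The 3 DUSP16 features all had slightly lower means in shASPP2. The brightest, AY038927 (chromosome 12, 12520962 to 12565326, hg18), read 941, 1152 and 913 in shASPP2, against 1202, 1269 and 1253 in shNon. The groups did not overlap, and the log2 fold change was -0.32 (SE 0.177, 95% interval -0.73 to 0.10, limma adjusted p = 0.549). The features NM_030640 and BC109234 had -0.25 (95% interval -0.71 to 0.21) and -0.08 (95% interval -0.56 to 0.40), with groups that overlapped. Without shNon array 3 they were -0.11 and -0.22, and without shNon array 2 BC109234 was 0.086. The phosphatases of JNK and p38 thus did not share a direction either, DUSP10 with higher and DUSP16 with lower means in shASPP2.

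SPRY2, which binds the ubiquitin ligase CBL and the adaptor GRB2, had the smallest p among the Sproutys. BC004205 (chromosome 13, 79808307 to 79810973, hg18) read 332, 341 and 300 in shASPP2, against 183, 199 and 247 in shNon. The groups did not overlap. The log2 fold change was 0.64 (SE 0.189, 95% interval 0.20 to 1.08), with a limma adjusted p of 0.298. The second feature, NM_005842, was dim and read 78.3, 111 and 84.2 in shASPP2, against 98.4, 58.2 and 61.4 in shNon. Of its shNon arrays 1 was above 2 times the random-probe level, the groups overlapped, and the log2 fold change was 0.35 (SE 0.262, 95% interval -0.26 to 0.96). It was 0.59 without shNon array 1, 0.21 without shNon array 2 and 0.20 without shASPP2 array 2.

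SPRY2 has 3 windows in the promoter table, and the most upstream start is shown as the only one of them with a match (chr13:80341077-80341376, minus strand, RefSeq, GRCh38.p14).
SPRY2: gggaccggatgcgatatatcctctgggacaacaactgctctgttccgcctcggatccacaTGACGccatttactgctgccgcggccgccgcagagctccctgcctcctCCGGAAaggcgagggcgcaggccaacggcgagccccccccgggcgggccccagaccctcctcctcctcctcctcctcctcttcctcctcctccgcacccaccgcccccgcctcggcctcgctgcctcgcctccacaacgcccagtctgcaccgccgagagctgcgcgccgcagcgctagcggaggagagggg
The capitals are a core motif of the cAMP-response element 190 bases before the start and an ETS core 142 bases before it. The 12 windows searched were of DUSP1, DUSP2, DUSP6, DUSP10, DUSP16, SPRY1, SPRY2 and SPRY4, 8 of the 10 genes, without DUSP4 and DUSP5. Of these windows 4 held the TGACG motif, 2 the ETS core, 2 the E-box and 0 the AP-1 motif. The other TGACG motifs lie in windows of DUSP10 and SPRY4, the other ETS core in SPRY1 and the other E-box in DUSP2.

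SPRY4, an inhibitor of the same receptor signal, and SPRY1, an antagonist of FGF and GDNF signalling in development, showed little difference. SPRY4 (NM_030964, chromosome 5, 141670188 to 141684750, hg18) read 1658, 1398 and 1886 in shASPP2, against 1357, 1381 and 1421 in shNon. The lowest shASPP2 array lay within the shNon range, and the log2 fold change was 0.24 (SE 0.183, 95% interval -0.19 to 0.67), or 0.14 without shASPP2 array 3. SPRY1 has 2 features on chromosome 4 (124540132 to 124544360 and 124537405 to 124544357, hg18). NM_005841 read 955, 952 and 856 in shASPP2, against 935, 996 and 1253 in shNon. NM_199327 read 684, 577 and 572 in shASPP2, against 526, 611 and 704 in shNon. Both overlapped, with log2 fold changes of -0.19 (95% interval -0.63 to 0.24) and -0.0021 (95% interval -0.45 to 0.45). Without shNon array 3 they were -0.07 and 0.10, and without shNon array 1 the second was -0.11. The intervals of the 2 genes reach from -0.63 to 0.67 log2, so equal levels are not shown.

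The other genes of the pathway were set beside the feedback genes with the brightest feature of each gene. Over the 10 feedback genes the median log2 fold change was 0.35, and over all genes 0.01. Of 14 genes of the core cascade from Ras to ERK, 0 passed over all features in limma and 0 had an unadjusted p under 0.05, with a median of 0.16. The kinase MAPK3 had a log2 fold change of -0.56, and the MEK kinase MAP2K1 had 0.34. Of 14 genes of the stress cascades, 0 passed, 0 had an unadjusted p under 0.05, and the median was -0.03. The kinases with the smallest p there were MAPK12 at -0.44, MAP2K6 at -0.37 and MAPK14 at -0.24. Among all genes 0.14% passed, 11.7% had an unadjusted p under 0.05 and 18.8% had groups that did not overlap.

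Of 12 other dual-specificity phosphatases 0 passed in limma, 2 had an unadjusted p under 0.05 and 6 had groups that did not overlap, all 6 higher in shASPP2, a direction in which 9.31% of all genes had groups that did not overlap. Their median log2 fold change was 0.24. STYX, a relative without catalytic activity, had a log2 fold change of 0.93 (limma adjusted p = 0.350), DUSP18 0.67 and DUSP12 0.34. Of the shNon arrays of STYX only 1 was above 2 times the random-probe level. Of 10 other feedback regulators 0 passed and 2 had an unadjusted p under 0.05. These were the antiproliferative TOB1 at 0.70 and LRIG1, which brings about the breakdown of ERBB receptors, at -0.66 (limma adjusted p = 0.256 and 0.259). IL17RD, an FGF signalling antagonist, had 0.42 and was dim, with a mean of 55.1 in shASPP2 and 41.1 in shNon. The relatives of the Sproutys had -0.33 for SPRED1, -0.15 for SPRED2, 0.25 for SPRED3 and 0.38 for SPRY3. SPRED3 and SPRY3 had means of 53.4 and 44.0 in shASPP2, against 47.6 and 34.6 in shNon, so both were dim.

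Genes that ERK or serum induces also ran both ways. Of 20 such genes 0 passed in limma, 4 had an unadjusted p under 0.05 and the median was 0.11. The AP-1 gene JUNB had a log2 fold change of 1.13 (SE 0.194, limma adjusted p = 0.129), the zinc finger gene EGR1 -1.12 (SE 0.281, limma adjusted p = 0.239) and the AP-1 gene FOSL1 0.47 (limma adjusted p = 0.415). EGR1 was dim in shASPP2, with a mean of 77.0 there and 174 in shNon. The ETS factor genes ETV4 and ETV5, which like DUSP6 are commonly read as ERK targets, had -0.43 and 0.0089.

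**Figure D3:**
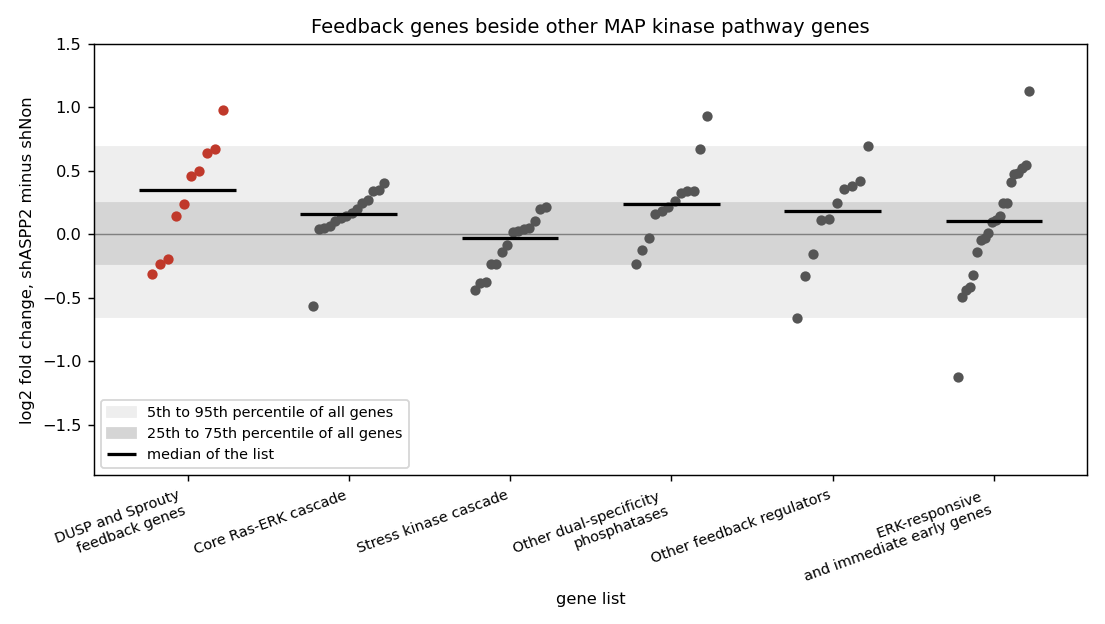
Log2 fold change, shASPP2 minus shNon, of the 10 DUSP and Sprouty genes (red) and of the genes of 5 other MAP kinase pathway lists (grey), each by its brightest feature and sorted within its list, with a bar at the list's median. Grey bands span the 25th to 75th and the 5th to 95th percentile of all genes. The median is 0.35 for the feedback genes, 0.24 for other dual-specificity phosphatases and -0.03 for the stress kinases.

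Genes with array profiles most like those of the feedback genes were taken as those with the smallest root mean square difference between log2 profiles, each centred on its mean over the 6 arrays, among 21902 named features brighter than the median. For DUSP1 these were DPH2, a diphthamide synthesis gene (0.07 log2), TARS3, a threonyl-tRNA synthetase (0.08 log2), and HSD17B7, a gene of cholesterol synthesis (0.09 log2). For SPRY2 these were JPT1 (0.04 log2), the hexokinase gene HK1 (0.06 log2) and the lipase cofactor gene ABHD5 (0.06 log2). The log2 fold changes were 0.93 to 1.00 for the first 3 genes and 0.59 to 0.61 for the others, and none passed over all features. Genes picked for such likeness must have fold changes near those of DUSP1 (0.98) and SPRY2 (0.64), so these values follow from the choice.

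**Figure D4:**
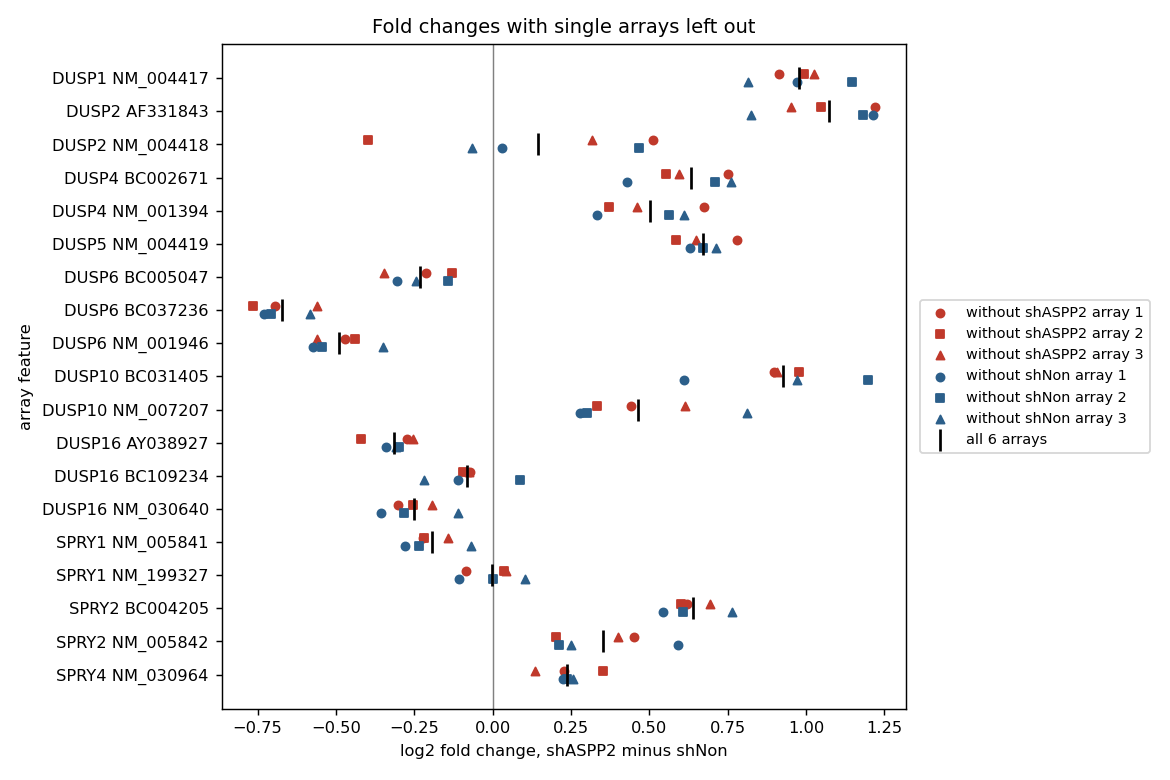
Log2 fold change, shASPP2 minus shNon, of each DUSP and Sprouty feature with each single array left out (red without a shASPP2 array, blue without a shNon array), beside the value from all 6 arrays (black bar). DUSP1 stays between 0.82 and 1.15, DUSP5 between 0.59 and 0.78, and the DUSP2 feature NM_004418 runs from -0.40 to 0.51.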

How the data were processed

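The members and all gene lists were chosen with earlier results of these data known. Total RNA of 6 cultures was hybridised in 1 colour (Cy3). The authors deposited a linear intensity for each feature and array. The submitters' processing notes name RMA, without version or settings, and 45031 of 45033 features have 3 probes, per the file headers. Scan batches and probe positions were not used here. RMA pulls dim features towards a floor, which makes their fold changes too small. The series' own table of values, which differed from these files in 0 cells, was an alternative.

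Log2 intensities were fitted with limma 3.58.1 in R 4.3.3 (lmFit and eBayes, group as only term), two-sided, with Benjamini-Hochberg adjustment over 45033 features and a threshold of 0.05. SEs are limma's moderated ones, and the number of arrays limits the precision. A random-probe row of 2508 probes entered no test. The fit was tested on simulated data. Symbols were updated through gene identifiers of a RefSeq table (GRCh38.p14), which named 38916 features, and other features kept the file's name. Named were all features of the 10 genes, TP53BP2 and, of each list, genes past the threshold or otherwise the 3 with the smallest p, besides others of the lists that were named after their values were seen (SPRED1, SPRED2, SPRED3, SPRY3, ETV4 and ETV5). A gene of the lists that this rule takes is not reported here. Alternatives were centring, cyclic loess, filters on dim features, a pseudocount of 50, trend and robust variance, array weights, the replicate block, gene level and leaving out each array.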

Additional observations from a re-analysis of the deposited data

How the results depend on the processing

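Of 16 other settings, the filter at the median kept 16 of the 19 DUSP and Sprouty features, without DUSP2 and SPRY2 NM_005842, gene level kept 10, and the rest all 19. With trend and robust variance 2 features passed, DUSP5 NM_004419 at 0.67 (adjusted p = 0.0227) and DUSP6 BC037236 at -0.67 (adjusted p = 0.0210), and 0 of the features kept passed in the other 15. Features at an unadjusted p under 0.05 numbered 8 of 19 with all arrays, where 11.4% of all features were past that level. With single arrays left out they numbered 6 to 8, where 7.37% to 12.9% of all features were. Features without overlap numbered 9 of 19 with all arrays, where 18.6% of all features had no overlap. Leaving out an array cannot make separate groups overlap, so that count could not fall and is not given for single arrays left out. At gene level only the brightest feature of each gene is kept. There 3 of 10 genes were at an unadjusted p under 0.05, where 11.5% of all genes were, and 4 of 10 had no overlap, where 18.8% of all genes had none. DUSP2, DUSP4, DUSP6 and DUSP10 each had a dimmer feature at an unadjusted limma p under 0.05, while their brightest feature was not. Of the other pathway genes 1 passed with the filter at the median (JUNB), 1 with the pseudocount and 3 with trend and robust variance, against 0. The TP53BP2 feature NM_005426 passed with the filter at the median and with that at 2 times the random-probe level (-1.41 in both), with the pseudocount (-1.10) and with trend and robust variance (-1.41), where NM_001031685 passed too (-1.11). Directions turned for 3 features. SPRY1 NM_199327 was 0.0097 with array weights and -0.11 to 0.10 with single arrays left out, DUSP2 NM_004418 was -0.40 to 0.51, and DUSP16 BC109234 was -0.22 to 0.086. The replicate block called 0 features of the whole array, against 62. In it 8 of the 19 were at an unadjusted limma p under 0.05, where 9.35% of all features were (DUSP1 adjusted p = 0.474). These were not the same 8, as DUSP4 NM_001394 came in and DUSP6 NM_001946 dropped out. The labels give no pairing, deviations of same-numbered arrays from their group means correlated at 0.0561, -0.0756 and -0.126, and arrays 2 and 3 correlated better with another number. With trend and robust variance 952 features passed over the whole array, with the pseudocount 378, with the filters 405 and 168, and with single arrays left out 0 to 17. The cause of these shifts was not tested. Signal over background limits both DUSP2 features and SPRY2 NM_005842.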
